A study of Homo sapiens with 8 samples.

Results

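The position of RNA polymerase II (RNAPII) was followed along 10 genes that carry a cell from G1 into S phase, out of 19794 protein-coding genes measured. The genes were chosen by name and not by any measured value, although earlier results of these data were known. They were CCND1 and CCND3 (D-type cyclins), CDK4 and CDK6 (their kinase partners), RB1 (the repressor they phosphorylate), CCNE1 and CCNE2 (E-type cyclins), CDK2 (the kinase of cyclin E), CDKN1B (the inhibitor p27) and CDC25A (the phosphatase that activates CDK2). The libraries came from MDA-MB-453, an established human breast cancer cell line, treated for 4 h with vehicle or with 600 nM of the CDK9 inhibitor CDDD11-8 (D11-8 in the labels). Each treatment had 2 replicates from independent passages, RNAPII was precipitated with the antibody CTD4H8, and peaks were called in each library against a chromatin input. One cell line was used, so the values describe that line.

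Mitogens induce D-type cyclins, which activate CDK4 and CDK6 to phosphorylate RB1. Phosphorylated RB1 releases E2F factors, and E2F induces cyclin E and CDC25A, so that CDK2 becomes active and DNA replication can begin. CDK9 is the kinase that lets RNAPII leave the pause just downstream of a transcription start site (TSS) and elongate through the gene body. The comparison of vehicle with CDDD11-8 asks where along each gene RNAPII was found when this kinase was inhibited.

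Vehicle replicates 1 and 2 held 78306 and 57493 peaks, and CDDD11-8 replicates 1 and 2 held 25897 and 21842. The study states a minimum sequencing depth for every sample. Read totals per library are not given in the lists, so differences in depth between libraries are unknown. The length of the list moves together with treatment. Of 9 luminal marker genes, including KRT8, GATA3 and ERBB2, 8 had a promoter peak in all 4 libraries at the longest isoform and all 9 at the canonical isoform. COL1A1 had one in 1 library, and ESR1, PGR, KRT5, KRT14, TP63, VIM and PTPRC had none. Each library gave 1 value per gene. An exact two-sided permutation test over 2 against 2 libraries cannot go below p = 0.33, so a gene was described as separated when both CDDD11-8 libraries lay beyond both vehicle libraries, and every separated comparison has that exact permutation p of 0.33.

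Positions are in GRCh37 coordinates and gene models are those of GENCODE release 44. The rule used the longest isoform of each gene. For 6 of the genes the longest isoform and the annotation's canonical isoform share a start: CCND1 (chr11:69455924-69469242, plus strand), CDK6 (chr7:92234235-92465887, minus strand), CCNE1 (chr19:30302898-30315219, plus strand), CDK2 (chr12:56360614-56366573, plus strand), CDKN1B (chr12:12870302-12875303, plus strand) and CDC25A (chr3:48198636-48229907, minus strand). The longest CCND3 isoform (chr6:41902672-42018095, minus strand) starts 109 kb upstream of the canonical one (chr6:41902690-41909546), at a start shared with TAF8, which begins 156 bp from it on the opposite strand. The longest CDK4 isoform (chr12:58144998-58149796, minus strand) starts 3.70 kb upstream of the canonical start (chr12:58141510-58146093), and that of CCNE2 starts 1.48 kb upstream of its canonical start. The longest RB1 isoform (chr13:48955386-49173572, plus strand) starts inside the gene, 77499 bp downstream of the canonical start (chr13:48877887-49056026). The main values of these 4 genes are therefore given for both isoforms.

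The DNA just upstream of 3 of the starts is printed here. These 3 windows, each 250 bases long and ending at the base before the TSS, are those of the members whose window no annotated transcript overlaps. Capitals mark matches to the E2F letters TTCGCGC or TTGGCGC and to CCAAT, on either strand. The windows are chr3:48229908-48230157 for CDC25A (minus strand), chr11:69455674-69455923 for CCND1 (plus strand) and chr19:30302648-30302897 for CCNE1 (plus strand), read 5′ to 3′ along each gene.
CDC25A: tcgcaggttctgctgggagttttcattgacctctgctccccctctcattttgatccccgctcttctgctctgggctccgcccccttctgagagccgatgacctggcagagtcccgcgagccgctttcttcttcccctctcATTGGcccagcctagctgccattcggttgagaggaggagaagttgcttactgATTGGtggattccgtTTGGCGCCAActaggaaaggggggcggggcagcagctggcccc
CCND1: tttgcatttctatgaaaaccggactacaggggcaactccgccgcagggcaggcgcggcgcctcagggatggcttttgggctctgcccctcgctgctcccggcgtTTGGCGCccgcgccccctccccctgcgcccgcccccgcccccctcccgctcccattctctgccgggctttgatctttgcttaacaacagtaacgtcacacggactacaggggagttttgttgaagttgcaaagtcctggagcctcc
CCNE1: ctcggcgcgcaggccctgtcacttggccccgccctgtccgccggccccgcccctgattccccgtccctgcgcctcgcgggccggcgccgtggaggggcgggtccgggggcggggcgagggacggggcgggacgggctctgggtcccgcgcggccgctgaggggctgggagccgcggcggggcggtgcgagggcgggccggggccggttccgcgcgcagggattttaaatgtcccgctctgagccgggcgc
The CDC25A window holds overlapping E2F matches on both strands, from -43 to -34 relative to the TSS, and 2 CCAAT matches. The CCND1 window holds 1 E2F match, from -146 to -140, and the CCNE1 window holds neither set of letters. The promoter peak spanned the whole window in every library at CDC25A and CCND1, but only in CDDD11-8 replicate 2 at CCNE1. The CCNE1 peak began 220 bp upstream of the TSS in CDDD11-8 replicate 1 and 160 bp after it in vehicle replicate 2. Vehicle replicate 1 had no promoter peak there. Across the canonical promoters of all 19794 genes, in a window of 250 bp before to 50 bp after the TSS, the E2F letters were present in 6.83% of promoters, and in 3 of the 10 members (CCND1, CCNE2 and CDC25A). CCAAT was present in 36.0% of promoters and 5 of the members, the GC box GGGCGG in 61.3% and all 10 members, and the TATA box TATAAA in 9.73% and none of the members. The reverse of CCAAT can share letters with TTGGCGC, but no matches of these motifs did so in the members. A match describes letters and not a bound factor.

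Gene body coverage, the percent of gene body bases that lie inside a peak (counted 300 bp downstream of the TSS up to 3 kb beyond the transcription end site, TES), was lower in both CDDD11-8 libraries at CCND3, CCNE2 and CDC25A. These were 3 of the 7 members that had, in every library, a promoter peak (a peak within 300 bp of the longest isoform's TSS), and 44.9% of the 9702 genes that met the same condition were separated in that direction. None of the 7 was higher in both, against 21.6% of genes. With canonical isoforms the same 3 genes of 8 were lower, against 45.5% of genes. The member shares lay close to those of all genes for lower coverage. The median difference in coverage (CDDD11-8 minus vehicle) was -9.29 percentage points over the 7 members and -1.97 over all 9702 genes. The member median is the value of CDK4, whose groups overlapped. CDK4 coverage was 100% in every library but CDDD11-8 replicate 2, where it was 81.4%, so this median does not describe the members as a set. Without CDDD11-8 replicate 1, CCND1 and CDK4 joined these 3 genes and the count was 5. With equal numbers of peaks in every library, CCNE2 and CDC25A were lower and CCND3 was not, a count of 2. A call is easier to meet with 1 library left out, and shares over all genes were not computed for these alternatives.

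**Figure D1:**
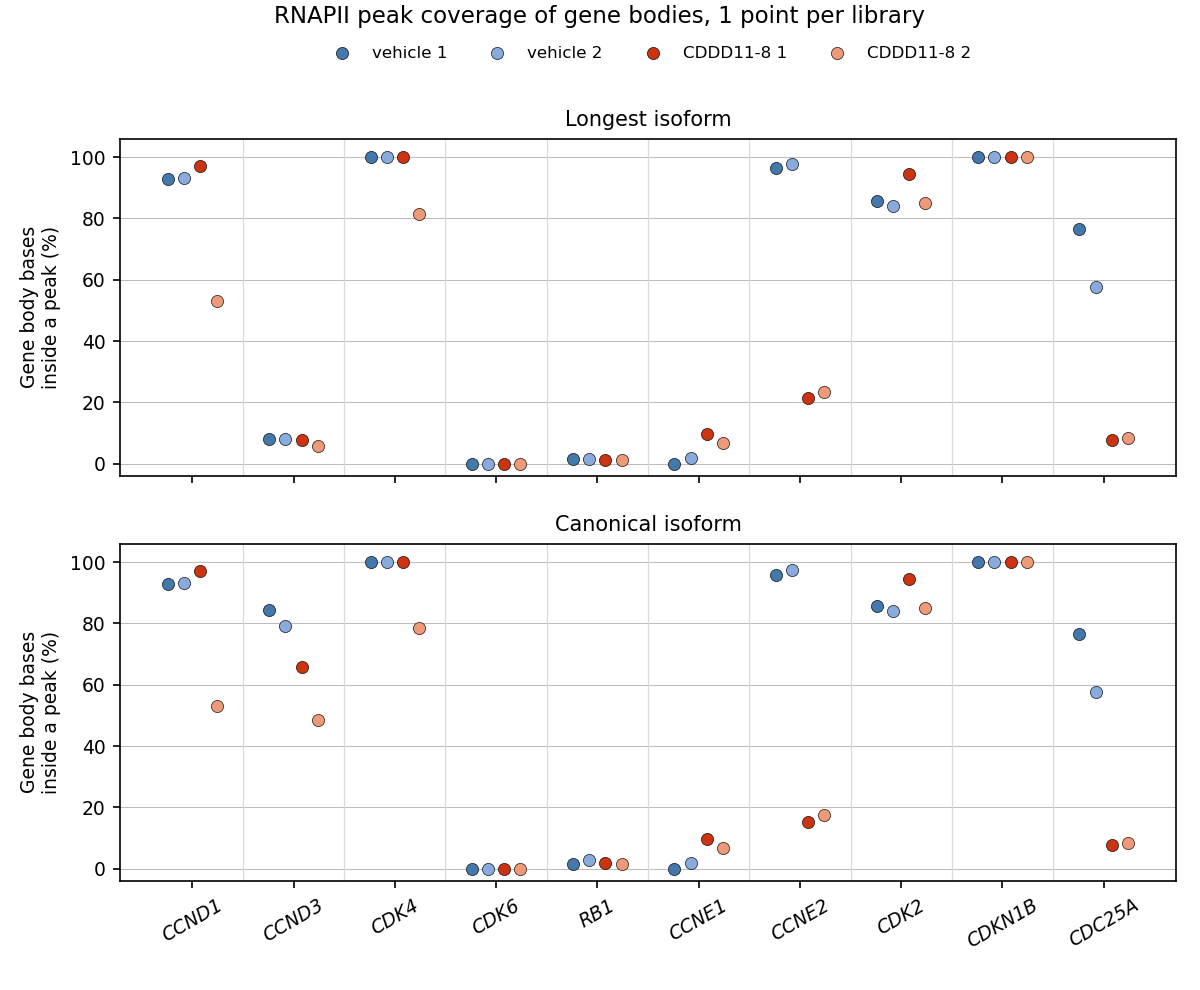
Percent of gene body bases inside an RNAPII peak (vertical axis) for the 10 genes, 1 point per library, by the longest isoform (top) and the canonical isoform (bottom). CCNE2 and CDC25A show both CDDD11-8 points far under both vehicle points (21.4% and 23.3% against 96.3% and 97.8% for CCNE2, longest isoform), CDKN1B is at 100% throughout and CDK6 at 0%.

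CCNE2, which encodes cyclin E2, had the largest difference in gene body coverage among the members. Coverage was 96.3% and 97.8% with vehicle and 21.4% and 23.3% with CDDD11-8, or 97.0% ± 1.06 against 22.4% ± 1.35 (SD, n = 2 each), a difference of -74.7 percentage points (exact permutation p = 0.33). The groups did not overlap, and from the canonical start the difference was -80.2. In vehicle cells the peaks ran across the gene and over all of the 3 kb after the TES. With CDDD11-8 the last covered base lay 3020 and 3707 bp after the canonical TSS (4497 and 5184 bp after that of the longest isoform), and nothing after the TES was covered. INTS8, on the opposite strand, overlaps 25.6% of the CCNE2 gene body window at its far end. With the gene body taken 2 kb past the TSS up to the TES, the difference was -78.1 percentage points.

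The promoter peak of CCNE2 was wider under CDDD11-8 while the gene body was emptier. It measured 4633 and 5174 bp with vehicle and 7118 and 6559 bp with CDDD11-8, or 4904 ± 383 bp against 6838 ± 395 bp (SD, n = 2 each). It ended 2363 and 2361 bp after the canonical TSS with vehicle, and 3020 and 3105 bp after it with CDDD11-8. With vehicle the next peaks began at 2794 and 2611 bp, so the vehicle end marks a short break between peaks. When peaks within 1 kb were joined, CCNE2 by its longest isoform no longer reached further in both CDDD11-8 libraries. Width was not compared with joined peaks. The peak also holds the start of NDUFAF6 on the opposite strand, 566 bp upstream of the canonical CCNE2 start, so its width is not of CCNE2 alone. The genes whose coverage over 10 equal gene body bins in the 4 libraries was most like that of CCNE2, among 9701 genes compared, were SRP9, HERPUD1 and UBE2T, with root mean square differences of 5.06, 7.04 and 7.09 percentage points.

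CDC25A, the phosphatase that removes inhibitory phosphates from CDK2, is a gene of 31.3 kb and was also covered less in both CDDD11-8 libraries. Its coverage was 76.6% and 57.5% with vehicle and 7.68% and 8.46% with CDDD11-8, a difference of -58.9 percentage points between 67.0% ± 13.5 and 8.07% ± 0.55 (SD, n = 2 each, exact permutation p = 0.33). The gene body held 15 and 17 peaks separate from the promoter peak in the vehicle libraries and none in either CDDD11-8 library. Between 10 and 20 kb after the TSS, 75.8% and 39.8% of bases were covered with vehicle and 0% with CDDD11-8 in both replicates. The 3 kb after the TES was 100% and 83.4% covered with vehicle and 0% with CDDD11-8. No other protein-coding gene lies in the CDC25A gene body window. When the lists were cut to equal numbers of peaks, the difference in coverage was -30.6 percentage points.

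The CDC25A promoter peak was the wider one under CDDD11-8 in both replicates. It measured 2423 and 2135 bp with vehicle against 5671 and 5593 bp with CDDD11-8, a difference of 3353 bp. It began 742 and 833 bp upstream of the TSS with vehicle and 2762 and 2420 bp upstream with CDDD11-8. Its downstream end lay 1680 and 1301 bp after the TSS with vehicle and 2908 and 3172 bp after it with CDDD11-8. With vehicle the next peaks began at 1914 and 1538 bp. When peaks within 1 kb were joined, CDC25A no longer reached further in both CDDD11-8 libraries. The printed window with its overlapping E2F letters lay inside the peak in all 4 libraries. Fold enrichment over background is set within each library, so its rank was compared. The CDC25A promoter peak stood at percentiles 66.5 and 79.4 of all peaks of the vehicle libraries and at 87.8 and 86.6 of those of CDDD11-8. CDC25A was the only member of the 7 with a higher rank in both CDDD11-8 libraries, where 9.03% of genes were.

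CCND3, which encodes cyclin D3, gave different pictures from its 2 starts. From the canonical start its coverage was 84.2% and 79.1% with vehicle and 65.9% and 48.4% with CDDD11-8, a difference of -24.5 percentage points (81.7% ± 3.56 against 57.1% ± 12.4, SD, n = 2 each, exact permutation p = 0.33). From the longest isoform, most of whose span carries no peak, the values were 8.17%, 8.01%, 7.65% and 5.84% in the same order. Both sets were separated in the same direction. With the gene body of the longest isoform taken 2 kb past its TSS up to its TES, the difference was 0.544 percentage points. The 3 kb after the TES, 100% and 68.1% covered with vehicle, was 0% covered in both CDDD11-8 libraries. BYSL, on the opposite strand, overlaps 11.5% of the canonical gene body window there, and the part of BYSL in these values was not tested.

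The canonical CCND3 promoter peak was 3845 and 2935 bp wide with vehicle, and 8141 and 4632 bp wide with CDDD11-8. It ended 2604 and 1734 bp after the TSS with vehicle and 6251 and 3167 bp after it with CDDD11-8. In CDDD11-8 replicate 1 it thus ran almost to the end of the 6857 bp gene. With vehicle the next peaks began at 3507 and 2101 bp, and joined peaks were not compared from this start. The peak at the longest isoform's start, shared with TAF8, measured 1778 and 1954 bp with vehicle and 1960 and 1691 bp with CDDD11-8, so its widths overlapped.

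CCND1, which encodes cyclin D1, lay largely under its own promoter peak. Coverage was 92.7% and 93.1% with vehicle and 97.1% and 53.2% with CDDD11-8. The CDDD11-8 libraries lay on opposite sides of the vehicle libraries, so the mean difference of -17.7 percentage points (92.9% ± 0.283 against 75.2% ± 31.0, SD, n = 2 each) had an exact permutation p of 1.0. Without CDDD11-8 replicate 2 the difference was 4.17, and without CDDD11-8 replicate 1 it was -39.6. The promoter peak measured 15453 and 16483 bp with vehicle, and 15967 and 10306 bp with CDDD11-8. It ended 10333 and 11379 bp after the TSS with vehicle, and 10273 and 4536 bp after it with CDDD11-8. CCND1 was the only member of the 7 with a promoter peak ending nearer the TSS in both CDDD11-8 libraries, where 9.75% of genes were, but in replicate 1 that end lay only just inside the vehicle values. Upstream, the peak began 5119 and 5103 bp before the TSS with vehicle and 5693 and 5769 bp before it with CDDD11-8.

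**Figure D2:**
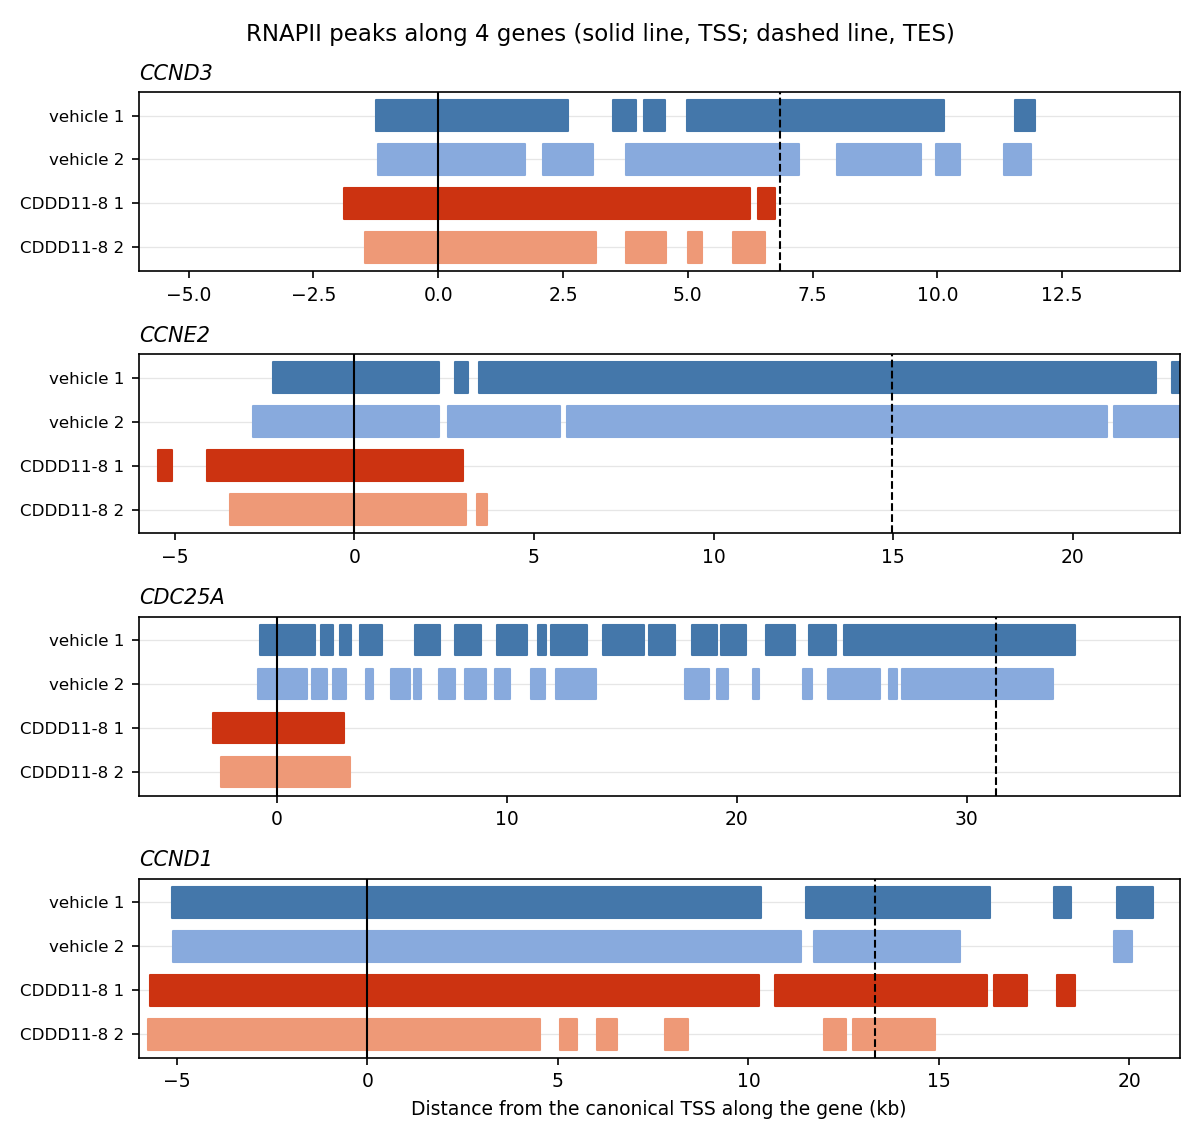
RNAPII peaks (bars) along CCND3, CCNE2, CDC25A and CCND1 in each library, by distance from the canonical TSS in kb. The separate gene body peaks of CDC25A (15 and 17 with vehicle) are absent with CDDD11-8, CCNE2 is covered past its TES in vehicle cells only, and CCND1 is broken into separate peaks in CDDD11-8 replicate 2.

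CDK4, the kinase partner of the D cyclins, sits among close neighbours and was covered almost throughout. Coverage from the longest isoform was 100% in both vehicle libraries and in CDDD11-8 replicate 1, and 81.4% in CDDD11-8 replicate 2. From the canonical start the last value was 78.5%. The promoter peak measured 12097 and 24419 bp with vehicle and 17506 and 7376 bp with CDDD11-8, so the groups overlapped. The peak held the start of MARCHF9 in all 4 libraries, that of TSPAN31 in all but CDDD11-8 replicate 2, that of CYP27B1 in vehicle replicate 2 alone and that of AGAP2 in CDDD11-8 replicate 1 alone. TSPAN31 overlaps 71.1% of the canonical CDK4 gene body window. RNAPII on CDK4 and on TSPAN31 cannot be told apart in these peaks. CDK6, the other partner of the D cyclins, had no peak in its promoter or anywhere in its 232 kb gene in any library. A peak list shows only that no signal passed the caller's threshold there.

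RB1 encodes the pocket protein that holds E2F inactive. At its internal longest start there was no promoter peak in any library, whereas the canonical start had one in all 4. The canonical peak measured 3002 and 4023 bp with vehicle, and 6680 and 6112 bp with CDDD11-8 (3512 ± 722 bp against 6396 ± 402 bp, SD, n = 2 each). It ended 1291 and 1852 bp after the TSS with vehicle and 3492 and 3022 bp after it with CDDD11-8, and the start of the divergent RNA RB1-DT, 31 bp upstream, lay inside it in every library. From there up to 3 kb beyond the TES of the 178 kb gene, the vehicle libraries held 6 and 9 separate peaks and the CDDD11-8 libraries held none. In both vehicle libraries some of these peaks lay after the TES. No separate peak of vehicle replicate 1 overlapped one of vehicle replicate 2, and their fold enrichments were 2.51 to 5.06. The CDDD11-8 lists are also shorter, so the lack of these peaks is not shown to be a loss of RNAPII. The last covered base, up to 3 kb beyond the TES, was at 181139 and 179876 bp from the TSS with vehicle, and at 3492 and 3022 bp with CDDD11-8. Canonical coverage was 1.70% and 3.0% with vehicle and 1.77% and 1.51% with CDDD11-8, and the groups overlapped. At the longest isoform coverage was 1.64% and 1.68% with vehicle and 1.38% and 1.30% with CDDD11-8, lower in both by a mean of -0.317 percentage points, and with equal numbers of peaks that difference was 0.259. Between 20 and 50 kb after that isoform's TSS, vehicle replicate 1 had 2.52% of bases covered. Vehicle replicate 2 had 3.35% between 10 and 20 kb and 0.97% between 50 and 100 kb. Both CDDD11-8 libraries had 0% in those intervals. Most of the covered bases lay 100 to 200 kb after that isoform's TSS. Coverage there was 2.86% and 2.88% with vehicle and 3.06% and 2.86% with CDDD11-8. RCBTB2, on the opposite strand, starts 151830 bp after that TSS, and its part in these values was not tested. The canonical percent does not show the lack of separate peaks, since the wider promoter peak counts towards it.

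CCNE1, which encodes cyclin E1, had little RNAPII in vehicle cells by these lists. It had no promoter peak in vehicle replicate 1, and one of 415 bp in vehicle replicate 2. In the CDDD11-8 libraries the promoter peak measured 1975 and 2320 bp. Gene body coverage was 0% and 1.83% with vehicle and 9.69% and 6.63% with CDDD11-8, higher in both by a mean of 7.24 percentage points (exact permutation p = 0.33). All of it came from the promoter peak, which ended 574 bp after the TSS in vehicle replicate 2, and 1754 and 1295 bp after it with CDDD11-8. No library had a separate peak further into the 12.3 kb gene, and with the gene body taken 2 kb past the TSS up to the TES the difference was 0. CCNE1 was left out of the counts over members because it lacked a promoter peak in 1 library.

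CDK2, the catalytic partner of cyclin E, was covered over most of its gene body in every library. The values were 85.8% and 84.1% with vehicle and 94.5% and 85.0% with CDDD11-8, and the groups overlapped (difference 4.83 percentage points, exact permutation p = 0.67). Its promoter peak measured 3607 and 3310 bp with vehicle and 5296 and 3622 bp with CDDD11-8. The groups were separated, but vehicle replicate 1 and CDDD11-8 replicate 2 lay closer to each other than the replicates of either treatment. The start of PMEL on the opposite strand, 94 bp upstream of the CDK2 start, lay inside the peak in all 4 libraries. Within 3 kb after the CDK2 TES lies the start of RAB5B, 7.25 kb from the CDK2 TSS, and RAB5B overlaps 19.8% of the CDK2 gene body window. Its part in the coverage of CDK2 was not tested.

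CDKN1B encodes p27, which inhibits cyclin E and CDK2. It was covered by 1 unbroken peak in all 4 libraries, so its gene body coverage was 100% in each. The peak measured 14695 and 14165 bp with vehicle, and 15619 and 14857 bp with CDDD11-8. It ended 10585 and 10922 bp after the TSS with vehicle and 11208 and 10870 bp after it with CDDD11-8, well past the end of the 5002 bp gene, and those ends overlapped. A start of APOLD1 on the same strand, 8.56 kb after the CDKN1B TSS, lay inside the peak in every library. The position of RNAPII within CDKN1B therefore cannot be read from the peak's width.

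**Figure D3:**
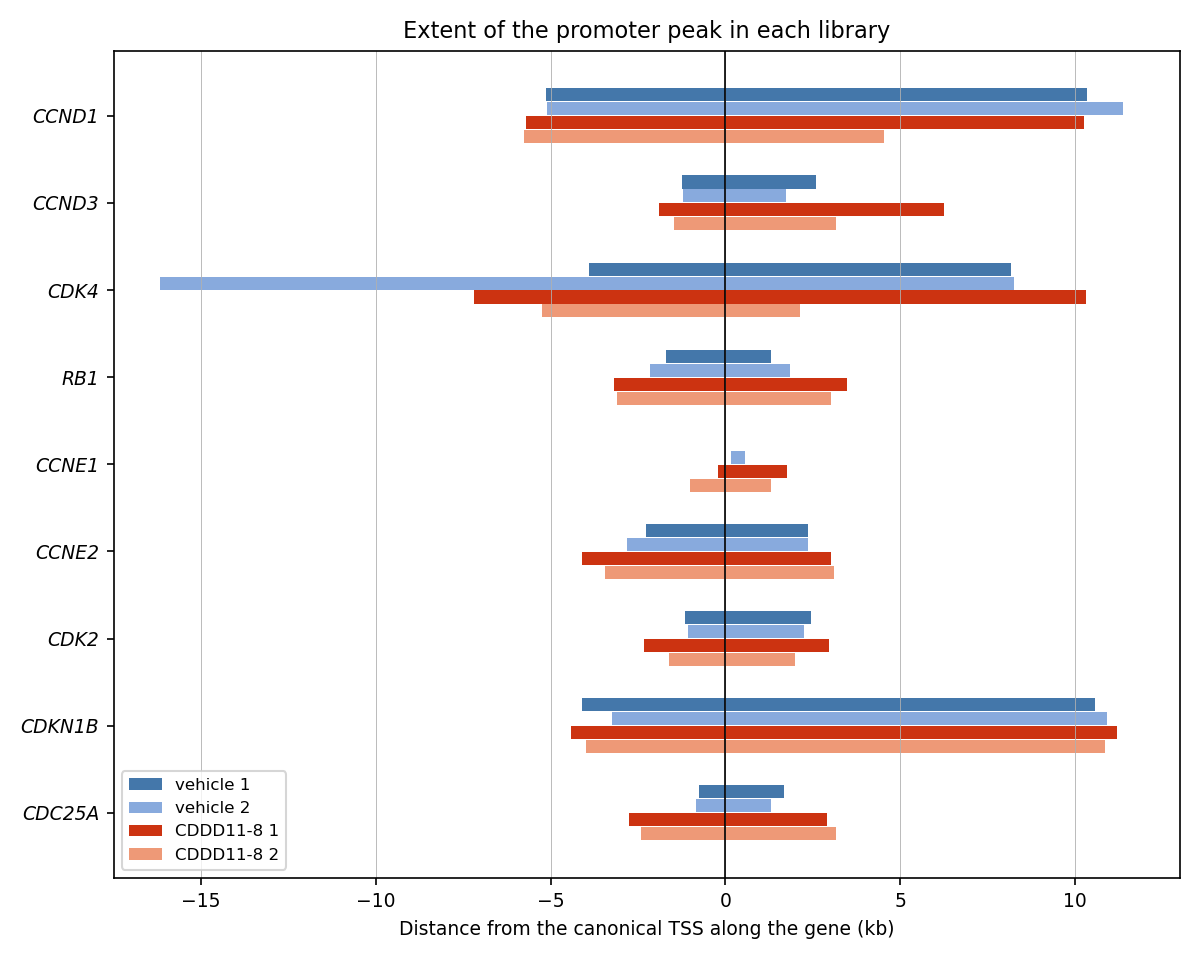
Extent of the promoter peak in kb from the canonical TSS, 1 bar per library, for the 9 genes with such a peak in at least 1 library. The bars of CCND3, CDC25A, RB1 and CCNE2 reach further on both sides with CDDD11-8 than with vehicle, CCNE1 has no bar in vehicle replicate 1, and the CCND1 bar of CDDD11-8 replicate 2 ends at 4.54 kb.

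Promoter peaks were wider in both CDDD11-8 libraries at CCNE2, CDK2, CDKN1B and CDC25A, 4 of the 7 members tested by the longest isoform, where 64.4% of all genes were wider. None was narrower in both, against 9.42% of genes. With canonical isoforms CCND3 and RB1 were added, which made 6 of 8 against 64.5% of genes. The peak reached further downstream in both CDDD11-8 libraries at CCND3, CCNE2 and CDC25A, 3 of 7 against 59.3% of genes, and with canonical isoforms also at RB1, 4 of 8 against 59.0%. Without CDDD11-8 replicate 2, CDK4, CDK2 and CDKN1B reached further as well and the count was 6. When peaks within 1 kb were joined, 1 member (CCND3) remained. Shares over all genes were not computed with a library left out, which makes a call easier to meet, or with joined peaks. The median width difference was 808 bp over the 7 members and 1214 bp over all genes by the longest isoform, and 1468 bp over 8 members and 1215 bp over all genes by the canonical isoform.

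The within-library rank of the promoter peak was lower in both CDDD11-8 libraries at CCND1, CDK4, CDK2 and CDKN1B, 4 of 7 members against 42.2% of genes (canonical isoforms, 4 of 8 against 42.1%). It was higher in both only at CDC25A, 1 of 7 against 9.03% of genes (canonical, 1 of 8 against 9.07%). CDK2 stood at percentiles 97.4 and 97.1 with vehicle and at 84.1 and 70.5 with CDDD11-8. CCND1 stood at 93.2 and 95.1 with vehicle and at 79.9 and 73.1 with CDDD11-8. The median percentile over all genes was 90.7 with vehicle and 82.8 with CDDD11-8, whose lists are shorter. A percentile depends on list length. Counted in places from the top of each list, CDK2 stayed lower (2022 and 1672 with vehicle, 4116 and 6436 with CDDD11-8). The other members with a lower percentile overlapped: CCND1 (5342 and 2820 against 5193 and 5876), CDK4 (309 and 3296 against 2990 and 3683) and CDKN1B (1678 and 685 against 638 and 859). With equal numbers of peaks in every library, CCND3 and CDC25A had the higher rank, a count of 2. Without vehicle replicate 1, CCNE1 joined CDC25A among the higher ranks, and without CDDD11-8 replicate 1 CCNE2 did, so that the count was 2 in each case. Ranked by −log10 q-value, none was higher in both. For these alternatives the shares over all genes were not computed.

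A second measure, added after the data were seen, used single summits. For each library the fold enrichment of the strongest summit within 1 kb of the TSS was divided by that of the strongest summit further downstream, up to 3 kb after the TES, and put on a log2 scale. By canonical isoforms, CCND1, CCND3, CDK4, RB1 and CDC25A had a higher ratio in both CDDD11-8 libraries, 5 of the 7 members with both summits in every library, against 71.9% of 6514 genes. By the longest isoform only CCND1 and CDC25A were higher, 2 of 7 against 67.6% of 6431 genes. Without vehicle replicate 2 there were 4, a setting for which the share over all genes was not computed. The ratio was lower in both CDDD11-8 libraries at CCND3 and CDK2 by the longest isoform, 2 of 7 against 5.85% of genes, and at CDK2 alone by the canonical isoform, 1 of 7 against 4.14%. The measure thus depended on which start was taken as the gene's own.

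CDC25A had the largest difference in this ratio. Its log2 ratio was -1.41 and -0.25 with vehicle, where the strongest downstream summit lay 32455 and 32452 bp from the TSS, just after the TES. With CDDD11-8 it was 1.94 and 2.73, and the strongest downstream summit lay 1968 and 2812 bp from the TSS. With only summits of a −log10 q-value of at least 5, CDC25A had no downstream summit in CDDD11-8 replicate 2 and so no ratio, and CCND1 was the 1 member left with a higher ratio. With CDDD11-8 the strongest downstream summit thus lay inside the promoter peak, and with vehicle at the far end of the gene. The canonical ratio of RB1 was 0.17 and 1.74 with vehicle, and 2.93 and 2.35 with CDDD11-8. That of CCND3 was -0.79 and 0.29 with vehicle, and 1.19 and 2.17 with CDDD11-8. From canonical starts, the strongest downstream summit with CDDD11-8 also lay inside the promoter peak at RB1 (2933 and 1962 bp), CCND3 (1353 and 2892 bp) and CCND1 (2231 and 2244 bp). From the longest isoform's start the order at CCND3 was the opposite, -0.74 and -0.6 with vehicle against -2.02 and -1.31 with CDDD11-8, with the strongest downstream summit near the canonical start in all libraries but vehicle replicate 1. CCNE2 had no downstream summit beyond 1 kb in CDDD11-8 replicate 1 from its canonical start, and so no ratio there. At CDK2 the order was the opposite, 0.14 and 0.33 with vehicle against -0.74 and -0.57 with CDDD11-8. Its strongest downstream summit lay 6395 to 7407 bp from the TSS, around the start of RAB5B.

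**Figure D4:**
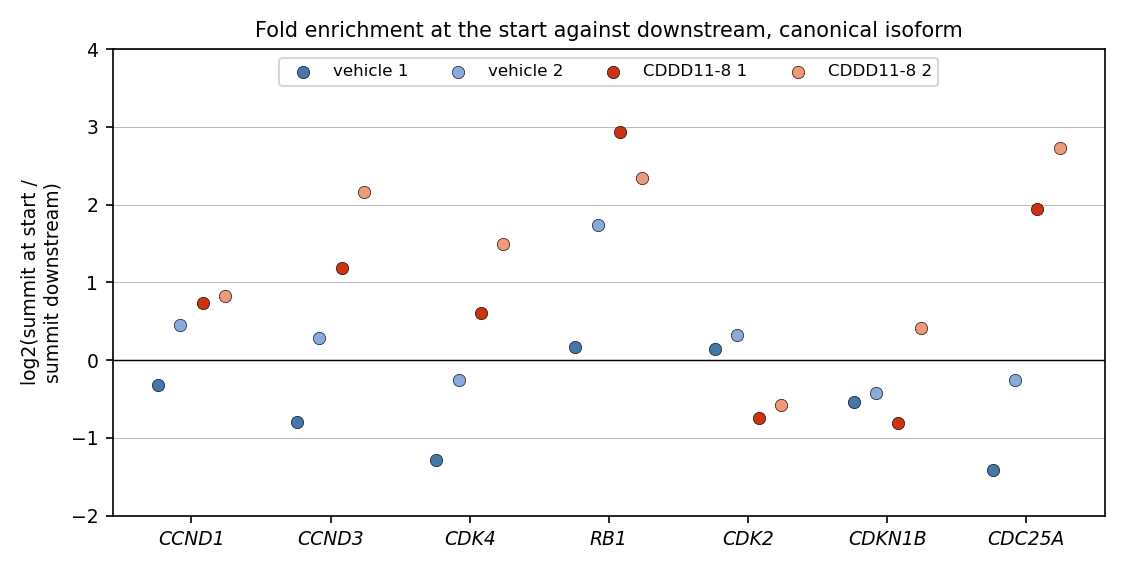
Log2 ratio of the strongest summit's fold enrichment within 1 kb of the canonical TSS to that of the strongest downstream summit, 1 point per library, for the 7 genes with both summits in all 4 libraries. Both CDDD11-8 points of CDC25A (1.94 and 2.73) lie above both vehicle points (-1.41 and -0.25), and those of CDK2 lie below.

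The other genes of the G1 to S pathway were taken from a list of 34, of which 31 had a promoter peak in every library. Gene body coverage was lower in both CDDD11-8 libraries for 17 of the 31, where 44.9% of all genes were, and higher in both for 7, against 21.6% of all genes. The promoter peak was wider in both for 24, against 64.4% of all genes, and narrower in none, against 9.42%. The median coverage difference was -2.45 percentage points, beside -1.97 over all genes. Among the pocket proteins and E2F and DP factors, 7 of 9 were lower, against the same 44.9% of all genes, and some by little, such as E2F3 by -2.45 and TFDP1 by -3.54 percentage points. E2F2, an activating E2F, was covered over 92.2% and 62.1% of its gene body with vehicle and 16.1% and 13.4% with CDDD11-8. RBBP4, a histone-binding subunit of the DREAM and MuvB complexes, had 92.3% and 81.8% with vehicle and 8.77% and 6.54% with CDDD11-8. CCNA2, cyclin A2, which follows cyclin E as the partner of CDK2, had 88.5% and 96.2% with vehicle and 24.9% and 22.3% with CDDD11-8. These 3 had the largest differences downwards in mean coverage on the list.

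The INK4 and CIP/KIP inhibitors were lower in none of the 4 with a promoter peak in every library and higher in 3 of them, CDKN2B, CDKN2C and CDKN2D, where 44.9% of all genes were lower and 21.6% higher. The difference was 2.59 percentage points at CDKN2B and 10.4 at CDKN2D. CDKN2C, the CDK4 and CDK6 inhibitor p18, had the largest difference upwards of the 31 genes by the longest isoform (22.9 percentage points), close to that of LIN37 (22.5), with coverage of 17.0% and 20.7% with vehicle and 43.8% and 39.7% with CDDD11-8. CDKN1A, the inhibitor p21, had no promoter peak at its longest isoform. At its canonical start it had one in all 4 libraries, with coverage of 0.981% and 3.53% with vehicle and 26.3% and 18.8% with CDDD11-8. It was named after its values were seen, as was LIN37. Mean promoter peak width was 2950 bp with vehicle and 4730 bp with CDDD11-8 at CDKN2C, and 1170 and 1860 bp at CDKN2B. It was 1110 and 4030 bp at the canonical start of CDKN1A. At CDKN2D it was 7020 and 6890 bp, and the widths overlapped. The promoter peak counts towards gene body coverage from 300 bp after the TSS, and its part in these differences was not tested. By canonical isoforms the difference was 22.5 percentage points at LIN37, 20.3 at CDKN1A and 14.5 at CDKN2C, so CDKN2C no longer had the largest. Of 32 genes with a canonical promoter peak in every library, 18 were lower (45.5% of all genes), 7 higher (21.0%) and 25 wider (64.5%), and 4 of the 5 inhibitors were higher.

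**Figure D5:**
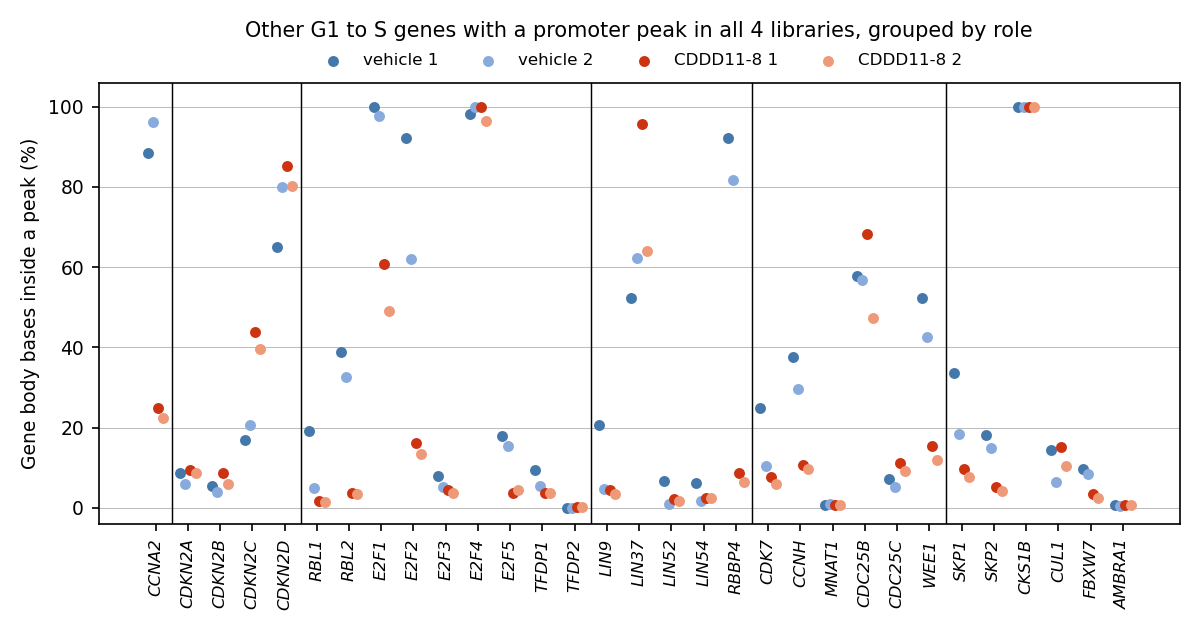
Percent of gene body bases inside an RNAPII peak for the 31 other G1 to S genes that had a promoter peak in every library, 1 point per library, grouped by role (from left: cyclin A2, inhibitors, pocket proteins with E2F and DP, DREAM and MuvB, CDK activation, degradation). CCNA2, E2F2 and RBBP4 have both CDDD11-8 points far under the vehicle points, and CDKN2C has both above.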

How the data were processed

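The authors aligned reads to GRCh37 with Bowtie2 and called peaks with MACS2 in each RNAPII library against its input, without pooling. The deposited fold enrichment is a ratio of signal to local background, and the deposited q-value of each summit is on the −log10 scale. The lists hold no read counts. The 4 inputs served only as the caller's control. Summits sharing a region were joined into 1 peak with the highest fold enrichment. Gene models came from GENCODE release 44 lifted to GRCh37 and promoter sequence from that genome. PECAM1 was not used. A promoter was 300 bp either side of the TSS. An exact two-sided permutation test set group means side by side. The measures recovered the planted width, reach and coverage at 2000 of 2000 genes in simulated peaks. The members, gene lists and tests were chosen with earlier results of these data known. All members were named. From the pathway list, the 3 genes with the largest fall and the 1 with the largest rise in mean coverage were named, among those with a promoter peak in every library and separated coverage. The 3 genes most like the member with the largest fall were also named. Alternatives changed the peaks used, windows, isoform, ranking, joining and libraries. Software was pandas 2.3.3, numpy 2.4.6 and scipy 1.17.1 in Python 3.11.15, with matplotlib 3.10.9 for the plots.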

Additional observations from a re-analysis of the deposited data

How the results depend on the processing

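Among genes at least 1 kb long and 3 kb apart, CDKN1B and CDC25A were the only members with a promoter peak in every library. The 3 members with lower gene body coverage became 1 (CDC25A) in that spaced set, where only those members could be counted. The count was 2 (CCNE2 and CDC25A) both with equal numbers of peaks and with a gene body beginning 2 kb past the TSS. It ranged from 3 to 5 with 1 library left out. The 4 members with a wider promoter peak became 2 in the spaced set, CDKN1B and CDC25A, which were all that could be counted there. That alternative was added after the data were seen. With 1 library left out the count ranged from 4 to 5. The 3 that reached further became 1 when peaks within 1 kb were joined, and ranged from 3 to 6. The 1 with a higher fold rank became 0 when ranked by −log10 q-value and 2 with equal numbers of peaks, and ranged from 1 to 2. The 2 with a higher summit ratio became 1 (CCND1, with CDC25A lacking a downstream summit) at a −log10 q-value of at least 5 and 5 with canonical isoforms, and ranged from 2 to 4. The coverage difference of CCND3 changed sign to 0.544 percentage points when the gene body began 2 kb past the TSS and ended at the TES. That of RB1 by the longest isoform changed sign to 0.148 at a −log10 q-value of at least 5 and to 0.259 with equal numbers of peaks. The causes were not tested, apart from the smaller number of genes in the spaced set. Except for canonical isoforms, shares over all genes were not computed under these alternatives. A call is easier to meet with 1 library left out, so those counts cannot be set against the main shares. Of 80 coverage differences under alternatives, 6 others moved by more than 1 SD. With the replicate block (differences within same-numbered libraries), the counts were 3, 4, 3, 1 and 2 in the order above, as without it. The paper describes replicate experiments on consecutive passages, so same-numbered libraries may be pairs, but the labels do not say that a number marks a shared passage. The main counts did not use pairing. The deviations of same-numbered libraries correlated at -0.0732 for coverage across 9702 genes, which cannot show whether the samples were paired. Without read totals, a missing peak cannot be told apart from signal under the caller's threshold.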
